A study of Arabidopsis thaliana with 24 samples.

Results

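BT2 (AT3G48360), the BTB and TAZ domain protein 2 of Arabidopsis thaliana, was followed through 1 probe set of the 22746 gene probe sets measured in this series. It was chosen by its signal in these arrays, which differed widely with nitrogen (N) and light (L), so its N, L and N*L values are given as a description without a test. The 24 ATH1 arrays covered 2 genotypes by 4 treatments, with 3 arrays per group from independent experiments. The mutant bzip1-1 carries a T-DNA in the single exon of the bZIP1 transcription factor gene, and WT-sib is a sibling line without that insert, both in the Col-0 background. The mutant is a single insertion line, and no probe set carried the name of bZIP1, so the targeted gene could not be picked out by name.

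All seedlings had grown for 14 days on 0.5 mM KNO3 with sucrose in long days and were then moved to fresh plates for 2 h at the start of the light period. Plants of the +N groups received 20 mM KNO3 and 20 mM NH4NO3, whereas those of the -N groups received KCl. Plants of the +L groups stayed in the light, whereas those of the -L groups were wrapped in foil. RNA came from whole seedlings, so that fewer cells of a type and less RNA per cell cannot be told apart in any value below. RCA, the Rubisco activase of green tissue, was brighter than 99.9% of probe sets in its mean log2 signal, while none of the 5 listed root markers had a probe set with a name.

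BTB-TAZ proteins are a small plant family in which the BTB domain binds the cullin CUL3 of ubiquitin ligases and the TAZ domain is a zinc-binding fold that contacts other proteins. BT2 is known as a target of nitrate, sugar and daily light signals, its messenger accumulating in darkness and under sugar shortage. Together with BT1 it is known to limit nitrate use under low nitrate, and it acts with TAC1 in the activation of telomerase.

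Values are MAS 5.0 signals, an arbitrary linear unit in which each array was scaled to a trimmed mean of 500. The median probe set of an array lay between 181.9 and 216.0, its 40th percentile between 115.5 and 135.5 and its 10th percentile between 10.4 and 18.6. Signals near or below this last value carry little information on the amount of RNA. Each group mean rests on 3 arrays, whereas the standard errors of log2 differences use a variance shared over all 8 groups.

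Both -N+L arrays with replicate number 1 read against the other light arrays of their labelled genotype. BT2 gave 153 on the array labelled bzip1-1, against 6.65 and 15.7 on the other -N+L arrays of bzip1-1. It gave 12.2 on the array labelled WT-sib, against 85.4 and 91.9 on the other -N+L arrays of WT-sib. An unnamed probe set, the lowest of all in the genotype term at -4.13, showed the same crossing. Whether this probe set is that of bZIP1 was not tested. Its signal was 470.9 on the array labelled bzip1-1, where the 5 other light arrays of bzip1-1 gave 68.6 to 122.8, and 56.5 on the array labelled WT-sib, where the 5 other light arrays of WT-sib gave 519.4 to 6034. AT3G56290, picked after its values were seen, gave 1806 on the array labelled bzip1-1 (6747 to 11651 on the others) and 7861 on the array labelled WT-sib (1656 to 2687 on the others). The second probe set that passed in the genotype term, ATCG00680 of the chloroplast genome, did not cross: it gave 2987 on the array labelled bzip1-1 and 4546 on that labelled WT-sib, each the lowest of its -N+L group. The labels were kept as deposited, and the BT2 differences that rest on these arrays are given with and without both of them.

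BT2 was among the brightest probe sets in darkness, lower in light with nitrogen, and in the lower part of the array in light without nitrogen. In bzip1-1 the +N+L arrays gave 2054, 1984 and 3000 for replicate numbers 1 to 3, and the -N+L arrays gave 153, 6.65 and 15.7. In the dark, the +N-L arrays of bzip1-1 gave 9176, 10794 and 12191, and the -N-L arrays gave 7235, 9488 and 7524. All 6 dark arrays of the mutant thus lay above its light arrays, and the -N+L arrays lay far below the +N+L arrays. In WT-sib the +N+L arrays gave 1388, 1034 and 3312, and the -N+L arrays gave 12.2, 85.4 and 91.9. The +N-L arrays of WT-sib gave 11888, 15103 and 12096, and the -N-L arrays gave 7106, 4644 and 9298. As in the mutant, no dark array overlapped a light array, and the +N+L and -N+L arrays did not overlap.

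**Figure D1:**
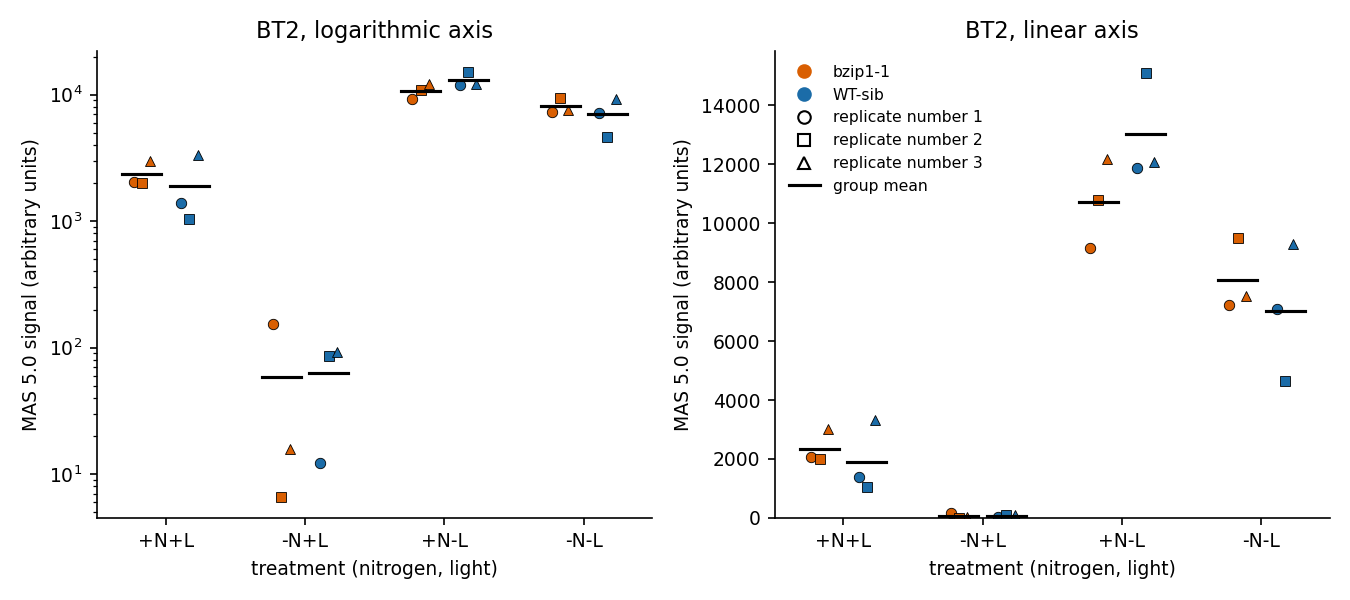
BT2 signal of each array on a logarithmic (left) and a linear (right) axis, by treatment and genotype; symbols are replicate numbers and bars are arithmetic group means. On the logarithmic axis the -N+L arrays, at 6.65 to 153, stand far below all others, while on the linear axis the gap between the dark arrays (4644 to 15103) and the +N+L arrays (1034 to 3312) dominates.

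The lowest dark array was 1.40 times the highest light array, and the brightest array of the series exceeded the dimmest by 2273-fold. Relative to the other probe sets of the same array, BT2 was brighter than 85.6 to 96.0% of them in +N+L, 4.4 to 42.6% in -N+L, 99.1 to 99.5% in +N-L and 97.6 to 98.9% in -N-L. Of the 6 arrays in -N+L, 5 lay below the 40th percentile of their array and 2 below the 10th. The low end of BT2 therefore fell in the range where signals say little, and folds against -N+L are imprecise.

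The 8 groups fell into 3 levels. From low to high in mean log2 signal, bzip1-1 -N+L (4.65 ± 2.34) and WT-sib -N+L (5.51 ± 1.66) came first, then WT-sib +N+L (10.72 ± 0.87) and bzip1-1 +N+L (11.17 ± 0.33). The dark groups followed in the order WT-sib -N-L (12.72 ± 0.51), bzip1-1 -N-L (12.97 ± 0.21), bzip1-1 +N-L (13.38 ± 0.21) and WT-sib +N-L (13.66 ± 0.19; SD, n = 3 in each group). Neighbours within a level overlapped in their arrays, whereas neighbours on either side of a step between levels did not. With all arrays the spread was thus widest where BT2 was dimmest. In bzip1-1 the highest -N+L array was 23.0 times the lowest, against 1.31 to 1.51 times in the other groups of the mutant. Much of this spread rested on the -N+L arrays of replicate number 1. Without them the -N+L arrays were 6.65 and 15.7 in bzip1-1, and 85.4 and 91.9 in WT-sib.

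Mean BT2 signal was higher with nitrogen in both genotypes and both light states, and by far more times in light. In light, +N gave a mean signal of 2346 ± 568 against 58.4 ± 82.0 for -N in bzip1-1, a ratio of 40.2. Without the array of replicate number 1, at 153, the -N+L mean was 11.2 and the ratio 210.2. The corresponding WT-sib means were 1911 ± 1226 for +N+L and 63.2 ± 44.3 for -N+L, a ratio of 30.3, and 21.6 without the -N+L array of replicate number 1. In the dark the ratio was 1.33 in bzip1-1, with means of 10721 ± 1509 for +N-L and 8082 ± 1226 for -N-L. These groups overlapped, the +N array being the higher one in 8 of 9 pairs. In WT-sib the dark ratio was 1.86, with 13029 ± 1799 for +N-L and 7016 ± 2329 for -N-L, and the arrays did not overlap (SD, n = 3 each).

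On the log2 scale the N difference was 6.52 in light and 0.41 in the dark for bzip1-1, and 5.20 in light and 0.94 in the dark for WT-sib. The standard error of each was 0.80, from a variance shared over all 8 groups, which is too wide for the dark groups and too narrow for -N+L. The mean N difference over both genotypes and light states was 3.27 (SE 0.40), the second highest of the 22746 probe sets. Without both -N+L arrays of replicate number 1 it was 3.35 (SE 0.19). The difference in light was then 7.82 in bzip1-1 and 4.25 in WT-sib (SE 0.40 each).

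Light went with less BT2 signal in both genotypes and both N states. Without nitrogen, the light mean was 0.723% of the dark mean in bzip1-1 and 0.900% in WT-sib. Leaving out both -N+L arrays of replicate number 1 made this 0.138% in bzip1-1 and 1.26% in WT-sib. With nitrogen, the light mean was 21.9% of the dark mean in bzip1-1 and 14.7% in WT-sib. The log2 differences were -8.32 without N and -2.21 with N in bzip1-1, and -7.21 without N and -2.95 with N in WT-sib (SE 0.80 each). Without the same 2 arrays the differences without N were -9.62 in bzip1-1 and -6.25 in WT-sib. The mean L difference, -5.17 (SE 0.40), was the second lowest of all probe sets, and it was -5.26 without the 2 arrays. Expressed against the -N-L group of the same genotype, +N+L reached 29.0% in bzip1-1 and 27.2% in WT-sib, so the dark level was not reached in light with nitrogen.

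The N response in light, set against that in the dark, depended on the scale. On the log2 scale the N difference was larger in light than in the dark by 6.11 in bzip1-1 and 4.26 in WT-sib, and the mean N*L value of 5.18 (SE 0.80) was the highest of all probe sets. Without both -N+L arrays of replicate number 1 these 3 values were 7.41, 3.30 and 5.36. On the linear scale the N difference in bzip1-1 was 2288 units in light and 2638 in the dark, so that N*L was -350 (SE 1170), which is within its error. In WT-sib it was 1848 units in light and 6013 in the dark, and N*L was -4165 (SE 1841). Without the 2 arrays the linear N*L values were -303 in bzip1-1 and -4191 in WT-sib. In ratios the N response was thus larger in light in both genotypes. In signal units it was smaller in light in WT-sib, while in bzip1-1 the difference was within its error. With an offset of 32 added before the logarithm, N*L was 4.02.

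**Figure D2:**
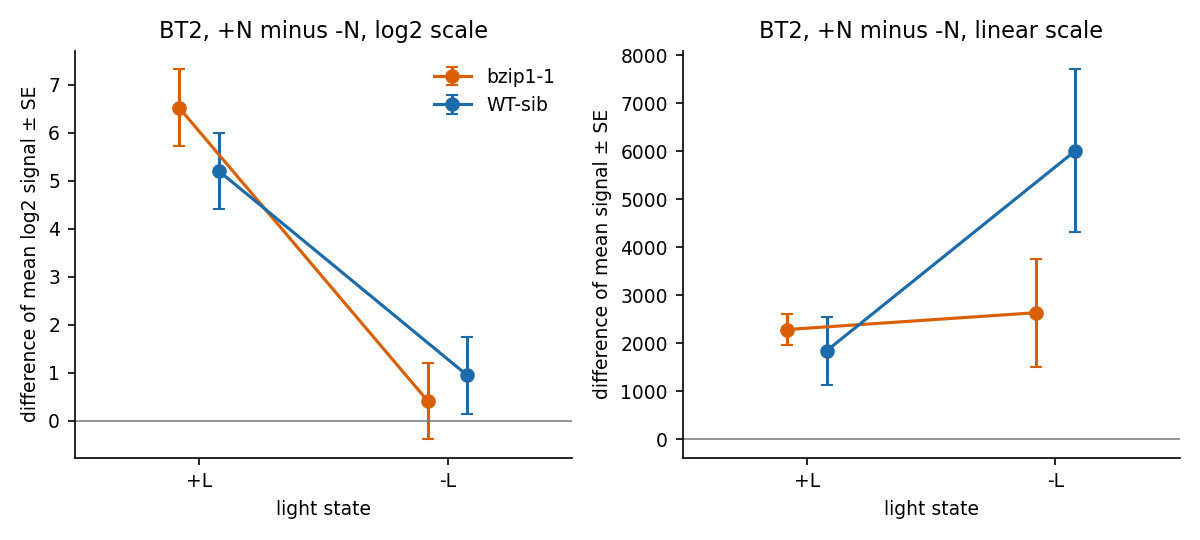
Difference of BT2 between +N and -N in light and in the dark, for both genotypes, as a difference of mean log2 signal with the shared limma standard error (left) and as a difference of mean linear signal with the standard error of each pair of groups (right). On the log2 scale both lines fall from light to dark, from 6.52 to 0.41 in bzip1-1. On the linear scale the WT-sib line rises from 1848 to 6013, while the values of bzip1-1, 2288 and 2638, differ by less than their error.

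The bzip1-1 mutation was not used to choose BT2, so the genotype (G) terms were tested, with limma over all probe sets and with exact permutation of the genotype labels within treatments. With all 24 arrays no G term of BT2 passed. The mean difference of bzip1-1 minus WT-sib was -0.11 on the log2 scale, with a 95% interval of -0.94 to 0.72, that is 0.521 to 1.65 times the WT-sib signal (adjusted p = 1.00, limma; exact two-sided permutation p = 0.841). Without both -N+L arrays of replicate number 1 it was -0.67, with an interval of -1.07 to -0.27 and an adjusted p of 1.00, limma. With those arrays set aside after their BT2 values were seen, the interval is a description. Among all probe sets 0.00879% passed in G, and 0% passed in N*G, in L*G, in N*L*G or in G within any single treatment. Before adjustment, limma p was below 0.05 for 613 of the 22746 probe sets in N*G, 390 in L*G, 408 in N*L*G and 353 to 813 in G within single treatments. Each is a smaller share than the 0.05 that would be met without any difference, so no genotype signal is read from these counts. Shares this low mean that the p-values of this fit run high, so the few calls do not show that genotype differences are absent. The fit leaves out the replicate number, and with that number as a block 7 probe sets passed in G in place of 2. Ordinary linear models of the log2 and of the linear signal also gave 0 adjusted calls in N*G, L*G and N*L*G.

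The difference of BT2 between genotypes was 0.45 in +N+L (exact p = 0.5), -0.86 in -N+L (exact p = 0.7), -0.28 in +N-L (exact p = 0.3) and 0.25 in -N-L (exact p = 0.4). All 4 have an adjusted p of 1.00 by limma, and 3 arrays against 3 cannot give an exact two-sided p below 0.1. Their 95% intervals were -1.21 to 2.12 in +N+L, -2.52 to 0.80 in -N+L, -1.94 to 1.38 in +N-L and -1.41 to 1.91 in -N-L, that is 0.434 to 4.33 times, 0.174 to 1.74 times, 0.260 to 2.60 times and 0.376 to 3.76 times the WT-sib signal in the same order of treatments. Each interval rests on the variance shared over all groups, which is too wide for the dark groups and too narrow for -N+L. Genotype differences as large as the ends of these intervals are not excluded by this fit. The intervals are not limits of detection. After adjustment over all probe sets, a difference whose interval leaves out 0 may still not pass. Without both -N+L arrays of replicate number 1 the intervals were -0.3 to 1.21 in +N+L, -1.03 to 0.47 in +N-L and -0.5 to 1 in -N-L, as a description. The interaction N*G was 0.39 (exact p = 0.699), L*G was -0.19 (exact p = 0.866) and N*L*G was 1.85 (SE 1.59, exact p = 0.252), where the smallest p that the 160000 arrangements allow is 1.25e-05.

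The genotype difference in -N+L rested on the arrays of replicate number 1. Without both of them the bzip1-1 arrays were 6.65 and 15.7, the WT-sib arrays were 85.4 and 91.9, and the difference was -3.12 on the log2 scale, with N*G at 1.52, L*G at -1.32 and N*L*G at 4.11. These arrays were set aside after their BT2 values had been seen, so this is a description of the remaining 4 arrays and not a test of genotype. All 4 lie below the 40th percentile of their arrays, where a small difference in signal is a large one in log2. With an offset of 32 the same 4 arrays gave -1.49.

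**Figure D3:**
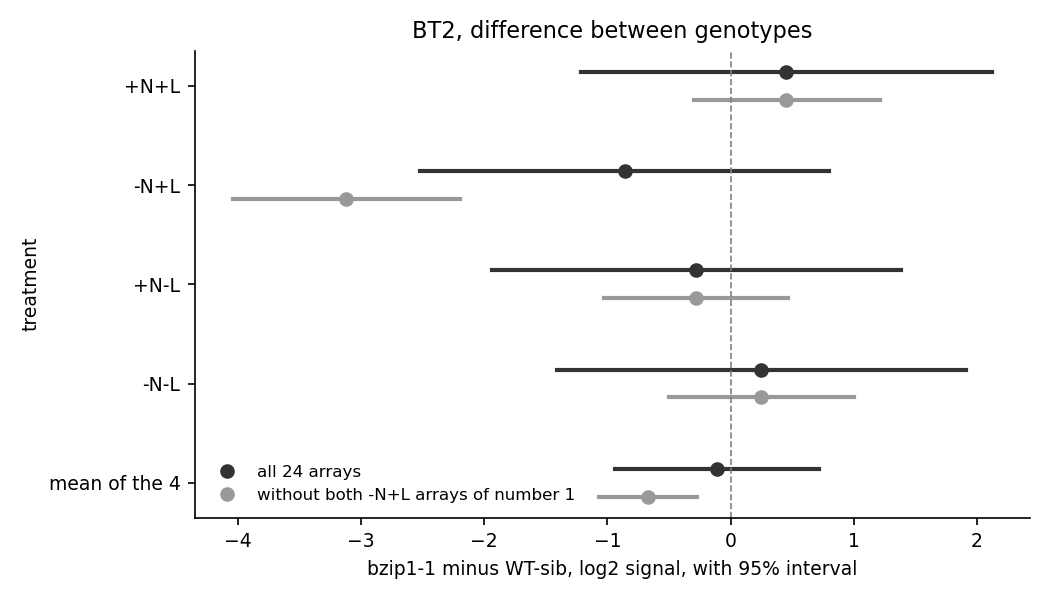
Difference of BT2 between bzip1-1 and WT-sib on the log2 scale, within each treatment and as the mean of the 4, with 95% intervals from limma, for all 24 arrays (dark) and without both -N+L arrays of replicate number 1 (light grey, a description only). With all arrays every interval includes 0. Without the 2 arrays the -N+L value is -3.12 and the mean is -0.67, against -0.86 and -0.11 with all arrays, and neither interval then includes 0.

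Of the 5 BTB-TAZ genes, 3 had a probe set with a name, all of them named through the study's own tables of regulated genes, and BT1 and BT4 were not analysed here. BT5 was also lower in light than in the dark. In bzip1-1 it gave 1340, 914 and 2136 in +N+L, 406, 357 and 534 in -N+L, 6776, 6926 and 8972 in +N-L, and 6560, 7766 and 6451 in -N-L. In WT-sib it gave 725, 620 and 3301 in +N+L, 528, 402 and 1194 in -N+L, 7778, 11701 and 7684 in +N-L, and 7026, 3321 and 7936 in -N-L. Every dark array was above every light array, and the +N+L arrays lay above the -N+L arrays in bzip1-1, but in WT-sib these overlapped, which they did not for BT2.

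In light, BT5 fell by 3.15 in mean log2 signal (adjusted p = 7e-09 by limma, SE 0.25), a direction that 11.7% of all probe sets shared at this threshold. Its N difference of 0.82 (SE 0.25) did not pass (adjusted p = 0.16), where 0.699% of all probe sets rose with N and 0.255% fell. Its N*L value was 0.89 (SE 0.49, adjusted p = 1.00). Its lowest array, at 357, was still well above the 40th percentile, so BT5 did not reach the floor that BT2 reached in -N+L. BT3 was flat by comparison, between 248 and 502 over all 24 arrays, with an N value of -0.32 (adjusted p = 0.15) and an L value of 0.16 (adjusted p = 0.26).

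**Figure D4:**
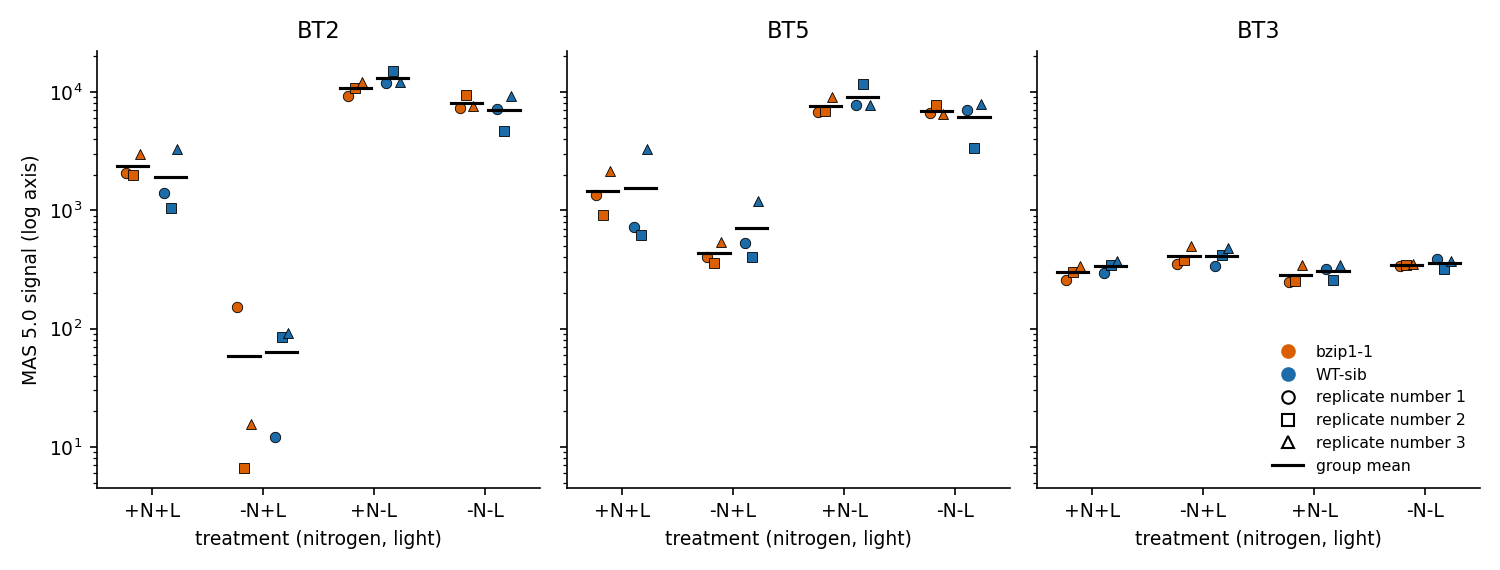
Signal of BT2, BT5 and BT3 on each array, on 1 logarithmic axis, by treatment and genotype; symbols are replicate numbers and bars are group means, and heights are to be compared within a gene, not between probe sets. BT2 and BT5 drop in both light treatments, BT2 alone drops to between 6.65 and 153 in -N+L, and BT3 stays between 248 and 502.

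Among 7 listed partners of BT proteins, TAC1 and TERT, the zinc-finger activator and the catalytic subunit of telomerase, had a named probe set. Neither passed in N or L, with N values of -0.80 and 0.20 (adjusted p = 0.69 and 0.86). Both were dim, with mean log2 signals below those of all but 6.7% and 26.2% of probe sets, so that their lack of a call is not informative.

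Among the nitrate-response regulators, 4 members both rose with N and fell in light. The share of all probe sets that did both was not computed, so this count has no background. Of 17 listed genes 9 had a named probe set, 5 of them rose with N (0.699% of all probe sets), 0 fell with N (0.255%), 5 fell in light (11.7%) and 0 rose in light (13.2%). The list median was 0.93 for N and -0.37 for L, against -0.04 and 0.00 over all probe sets. LBD37 and LBD39, transcription factors known to repress nitrate-responsive genes, rose with N by 1.30 and 1.37, with L values of -0.63 and -0.62. The L call of LBD39 (adjusted p = 0.031) was lost in 9 of the 24 fits with 1 array left out, with adjusted p-values of up to 0.061. It was also lost without both -N+L arrays of replicate number 1. LBD38, of the same family, rose with N by 0.93 (adjusted p = 0.014) and had an L value of -0.29 (adjusted p = 0.31). AT1G25550, a GARP-type transcription factor, rose with N by 1.52 and fell by 1.47 in light. Its relative AT1G68670 rose with N by 0.99 and fell by 1.15 in light. CIPK23, the kinase that phosphorylates the nitrate transporter NRT1.1, fell by 0.37 in light (adjusted p = 0.017) and had an N value of 0.26 (adjusted p = 0.44). TCP20, NRG2 and AT3G25790 passed in neither term. Of the 9, 5 were named only through the study's lists of regulated genes, which favours genes that change.

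Of 9 listed genes of nitrate uptake and assimilation 6 had a named probe set, all of them named through the study's lists. Of these, 4 rose with N (0.699% of all probe sets), 0 fell with N (0.255%), 3 rose in light (13.2%) and 0 fell in light (11.7%). NIA1, a nitrate reductase, rose with N by 2.53 and in light by 1.72. NIR1, the nitrite reductase, rose with N by 2.43 and in light by 1.18 (adjusted p = 0.015). Without both -N+L arrays of replicate number 1 its L value was 1.02 and did not pass (adjusted p = 0.051). UPM1, which makes the siroheme precursor for nitrite reductase, rose with N by 2.19, and the second nitrate reductase NIA2 by 0.69. NRT1.1, the nitrate transporter and sensor, rose in light by 1.18 and had an N value of -0.04. WR3, a partner of high-affinity nitrate transporters, had an N value of 0.79 (adjusted p = 0.17) and an L value of 0.19 (adjusted p = 0.65). Several of these genes were uneven on the +N-L arrays of bzip1-1, NIA1 at 949 to 7746, NIR1 at 814 to 11719, NRT1.1 at 757 to 6712, WR3 at 1841 to 7721 and UPM1 at 720 to 2804, where BT2 was at 9176 to 12191.

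The dark-inducible and starvation genes shared the fall in light but mostly not the response to N. Of 13 listed genes 7 had a named probe set, 6 fell in light (11.7% of all probe sets), 1 rose in light (13.2%), 2 rose with N (0.699%) and 0 fell with N (0.255%). Among the 7, 5 were named only through the study's lists of regulated genes, which favours genes that change. ASN1, the asparagine synthetase of darkness, fell by 3.24 in light. SEN1, a dark-induced senescence gene, fell by 3.10, and AKINBETA1, a subunit of the energy-sensing kinase SnRK1, fell by 3.05. DIN4, of branched-chain amino acid breakdown, fell by 2.28. Their N values were 0.21, -0.07, 0.12 and 0.17, with adjusted p-values of 0.91 or more. TPS9, a trehalose phosphate synthase family member, fell by 2.67 in light and rose with N by 0.97. BZIP53, a transcription factor of the same group S1 as bZIP1, fell by 1.08 in light and rose with N by 0.76 (adjusted p = 0.024), a call that was lost in 8 of the 24 fits with 1 array left out (highest adjusted p 0.056). GBF6, the sugar-controlled factor also called bZIP11, rose in light by 2.11. The L value of BT2, -5.17, was lower than that of any of these 7.

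**Figure D5:**
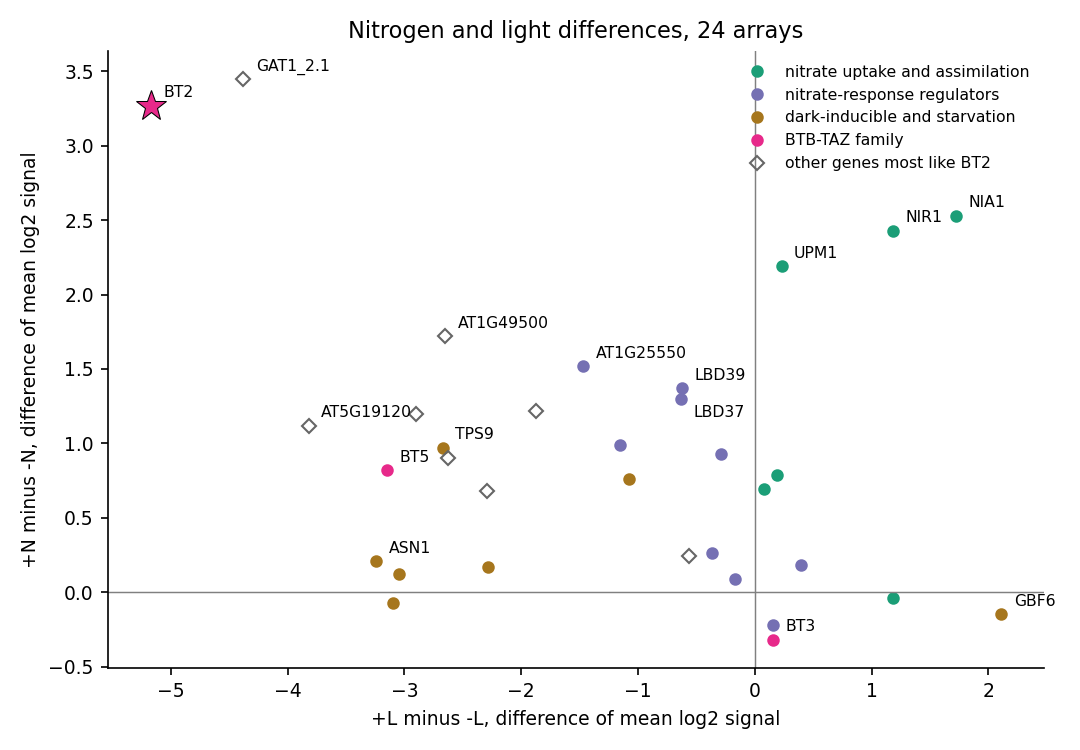
Difference with light (horizontal) and with nitrogen (vertical), both as differences of mean log2 signal over 24 arrays, for the named members of 4 gene lists and for the other genes whose arrays were most like BT2. BT2 stands at the upper left with an L value of -5.17 and an N value of 3.27, LBD37, LBD39 and AT1G25550 lie above the origin and to its left, and the assimilation genes NIA1, NIR1 and UPM1 lie to the upper right.

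Of 10 clock genes 3 had a named probe set. GI and PRR7 rose in light by 3.77 and 1.03 (13.2% of all probe sets rose), and ELF3 fell by 0.89 (11.7% fell). None of the 3 passed in N, where 0.699% of all probe sets rose and 0.255% fell, so nothing is read from this. Among the 3, 2 were named only through the study's lists of regulated genes.

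The pattern of BT2 over the 24 arrays was compared with that of 8021 named probe sets whose mean log2 signal was above the 40th percentile of 6.94. Pearson's r of log2 signal had a median of -0.029 and 5th and 95th percentiles of -0.673 and 0.681, and it was above 0.9 for 14 probe sets. These values share the light difference that runs through a large part of the array, and the 24 points are 8 groups of 3, so no p is given. The most alike was AT1G49500 (r = 0.963), followed by AT1G68670 (0.937), AT3G15450 (0.928), AT1G25550 (0.923) and AT5G19120 (0.922). Next came GAT1_2.1, a class I glutamine amidotransferase (0.920), AT4G05070 (0.918), TOPP7, a type 1 protein phosphatase (0.916), GRXS13, a glutaredoxin (0.914), and HSPRO2, a protein that binds SnRK1 (0.912). BT5 was 20th, with r = 0.878.

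AT1G49500 was also lowest in -N+L, without overlap with the other treatments, but its step between +N+L and the dark arrays was not clean. In bzip1-1 its signal was 2164 to 4219 in +N+L, 402.8 to 607.3 in -N+L, 6887 to 11824 in +N-L and 5291 to 6841 in -N-L. In WT-sib it was 2206 to 4522 in +N+L, 197.7 to 579.3 in -N+L, 7381 to 10763 in +N-L and 3606 to 6970 in -N-L, which overlapped both +N+L groups. Its group means spanned 4.58 on the log2 scale, against 9.01 for BT2, and none of its arrays came near the floor. GAT1_2.1 came closest to BT2 in range, with a span of 8.25, an N value of 3.45 and an L value of -4.38. Like BT2 it was at the floor in -N+L, with 9.38 to 11.8 in bzip1-1 and 9.07 to 22.4 in WT-sib.

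The genes least like BT2 were KAI2, the karrikin receptor (r = -0.883), AT1G69480 (-0.881), PUT4, a polyamine transporter (-0.875), AT4G33040 (-0.873) and AT5G43150 (-0.864). The choice of measure changed the list of 10. Of the 10, 6 stayed with the 8 group means, 3 with Spearman's rho, 4 with the linear signal, where MIOX2 came first (0.987) and BT5 second, 4 within bzip1-1 and 5 within WT-sib. After group means were removed from every probe set, 0 of the 10 stayed among the first 10. Over the 24 arrays r was then 0.546 for AT1G49500, 0.449 for AT5G19120 and -0.004 for GAT1_2.1, and -0.700 for AT1G69480. These values lean on the -N+L arrays, where the SD of BT2 in log2 signal was 2.34 and 1.66, against 0.19 to 0.87 in the other groups. They were not computed without the -N+L arrays of replicate number 1.

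In N*L, 9 of the 22746 probe sets had an adjusted p under 0.05 in limma, 0.0396% of all. BT2 is counted among them, and nothing is read from that, since N and L values chose it. The 8 others all had a larger N difference in light. They were AT1G49500 (2.08, adjusted p = 0.04996), UGT73B1, a glucosyltransferase (2.00, adjusted p = 0.000941), AT5G19120 (1.90), AT3G19030 (1.56), AT1G68670 (1.37, adjusted p = 0.0176), an unnamed probe set (1.30), GSTU7, a glutathione transferase (1.22), and AT1G25550 (1.21). Of these 8, 4 are among the 10 genes most like BT2. Both lists come from the same arrays, and BT2 had the highest N*L value, so nothing is read from this overlap. AT1G49500 lost its call in 19 of the 24 fits with 1 array left out, AT5G19120 and AT1G25550 in 20 each and AT1G68670 in 2. The count over all probe sets moved between 1 and 26 in these fits, and an ordinary linear model of the linear signal gave 0. With the replicate number as a block it was 38.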

How the data were processed

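RNA of whole seedlings was hybridised to Affymetrix ATH1 arrays. The deposited intensity values are MAS 5.0 signals per probe set on a linear scale, which the authors scaled so that every array has a mean of 500 once 2% is trimmed at both ends. The table has 22810 probe sets without detection calls, and replicates were not pooled. After 64 control probe sets were set aside, log2 signal without an offset was fitted for all 22746 others with limma 3.58.1 in R 4.3.3, with 1 mean per group and a prior variance that follows the mean signal, and two-sided p-values were adjusted by Benjamini-Hochberg (threshold 0.05). N, L and G are +N over -N, +L over -L and bzip1-1 over WT-sib on the log2 scale, and N*L is the N difference in light minus that in the dark. The code of the fit was checked on simulated log2 signal with known changes and independent noise. That simulation had no replicate effect and no floor, so it does not show that the fit suits these data. Exact tests permuted genotype labels within treatments. The study's methods name a three-way ANOVA of the signal, and ANOVA of the linear and of the log2 signal are among the alternatives.

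The platform's table gave 1 locus to 13367 probe sets, and the study's tables of regulated genes named 881 more, BT2 among them. Names come from these tables and the TAIR10.1 annotation. Genes most and least like BT2 were the 10 and 5 with the extreme r, and every named list member could be described. BT2 and the gene lists were chosen with earlier results of these data known. Python 3.11.15 with matplotlib 3.10.9 drew the figures.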

Additional observations from a re-analysis of the deposited data

How the results depend on the processing

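The BT2 values were recomputed with other scalings, offsets, variance models and without single arrays. Taking the log2 ratio of mean linear signals in place of mean logarithms gave N as 0.88 and L as -3.15, and turned N*G to -0.39 and L*G to 0.38. An offset of 32 gave N*L as 4.02 and turned G to 0.03 and L*G to 0.09. No G term passed with the offset, and the ratio of means carries no test. Leaving out 1 array at a time gave ranges of 3.03 to 3.59 for N, -5.49 to -4.93 for L and 4.70 to 5.83 for N*L. The same omissions gave -0.43 to 0.13 for G, -0.09 to 1.04 for N*G, -0.84 to 0.29 for L*G and 0.89 to 3.15 for N*L*G. In -N-L they gave -0.02 to 0.48 for G, and in -N+L -2.16 to 0.10, the ends being without replicate 1 and without replicate 2 of bzip1-1 -N+L. Chosen after seeing the data, the fit without both -N+L arrays of replicate number 1 gave G in -N+L as -3.12, as did replicate numbers 2 and 3 alone. Those arrays were set aside after their BT2 values were seen, so no p-value of BT2 is read from these fits. Without both arrays and with an offset of 32, the N difference of WT-sib in light was 3.83 and its L difference without N was -5.81.

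Counts of probe sets passing were less stable. For N the 217 became 77 with numbers 2 and 3 alone. For N*L the 9 became 5 with the offset, 1 without the variance trend or with plain ANOVA on log2 signal, 0 with ANOVA on linear signal, 28 without both arrays, 26 with the offset as well and 4 with numbers 2 and 3 alone, and 1 to 26 without single arrays. For G the 2 became 1 with a common median, without the trend or with either ANOVA, and 1 to 3 without single arrays. Deviations from the group means had r over 0.1 in 65 of 84 pairs of arrays with the same replicate number (median 0.245, lowest -0.0722) and in 3 of 168 with different numbers (median -0.0775). The main fit did not take the numbers as pairs, since the labels do not say that equal numbers share an experiment and not every pair was over 0.1. The study describes independent experiments, so the main fit may leave out a pairing. With the replicate number as a block, N gave 652, N*L 38 and G 7. Without both arrays as well these counts were 709, 64 and 5, and G of BT2 in -N+L was -3.12, again as a description. With all arrays the block brought no G term of BT2 past the threshold. Of 55 results of other named genes past the threshold, 0 changed sign, and 7 lost it under at least 1 planned setting with all arrays. Signals near the floor limit every ratio against -N+L.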
